A study of Mus musculus with 20 samples.

Results

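The genes described here are 10 that set extracellular pyrophosphate and phosphate or that hold back calcification: Ank, Enpp1, Abcc6, Panx3, Alpl, Nt5e, Phospho1, Slc20a1, Slc20a2 and Mgp. They were chosen by symbol, and each was found once among the 51789 genes of the table. RNA was measured in 2 parts of the intervertebral disc, the gel-like nucleus pulposus (NP) and the surrounding fibrous annulus fibrosus (AF), of BL6 mice aged 24 months. From 18 months of age, and for 6 months, the mice received weekly intraperitoneal injections of DMSO (vehicle) or of MDL-800, a small molecule used as an activator of the deacylase SIRT6, in the same amount of DMSO. Each tissue gave 5 vehicle and 5 MDL-800 libraries, and all 4 groups share the age and the DMSO. A library's number is the one in its title. The labels do not say that each library came from a separate mouse, so p-values measure the spread between these libraries, part of which may be technical.

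Pyrophosphate outside the cell binds to hydroxyapatite and stops the crystal from growing, whereas phosphate is the crystal's building block. Cells supply pyrophosphate by releasing ATP, which Enpp1 splits into pyrophosphate and AMP, and the membrane protein Ank is needed for release of pyrophosphate and ATP. Alkaline phosphatase (Alpl) breaks pyrophosphate into phosphate, Nt5e turns AMP into adenosine and phosphate, and sodium-driven carriers take phosphate into the cell. In fibrocartilage and joints, loss of the pyrophosphate suppliers is known to lead to mineral deposits, while growth cartilage and bone use Alpl and Phospho1 to start mineral.

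With group means subtracted, levels of Ank, Enpp1 and Nt5e moved together over the 20 libraries, and Slc20a1 moved with Nt5e and Enpp1. For Ank this was closer within AF than within NP (values below). The promoter windows of these 4 genes are shown. Each runs from 250 bases before to 50 bases after an annotated start, on the gene's own strand, and comes from RefSeq on GRCm38.p6. Capitals mark every match, on either strand, to 5 short motifs. They are the box TATAAA, the hypoxia response element core ACGTG, the RUNX core TGTGGT, the AP-1 site TGANTCA and the box rich in GC, CCGCCC. Ank lies at chr15:27466427-27466726 (plus strand), Enpp1 at chr10:24712110-24712409 (minus strand), Nt5e at chr9:88327359-88327658 (plus strand) and Slc20a1 at chr2:129198523-129198822 (plus strand).
Ank: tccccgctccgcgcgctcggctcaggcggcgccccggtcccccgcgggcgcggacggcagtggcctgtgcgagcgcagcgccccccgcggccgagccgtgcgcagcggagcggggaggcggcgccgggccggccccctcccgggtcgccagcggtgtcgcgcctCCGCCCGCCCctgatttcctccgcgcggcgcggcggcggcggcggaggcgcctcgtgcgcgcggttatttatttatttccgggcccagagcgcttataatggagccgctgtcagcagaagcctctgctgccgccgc
Enpp1: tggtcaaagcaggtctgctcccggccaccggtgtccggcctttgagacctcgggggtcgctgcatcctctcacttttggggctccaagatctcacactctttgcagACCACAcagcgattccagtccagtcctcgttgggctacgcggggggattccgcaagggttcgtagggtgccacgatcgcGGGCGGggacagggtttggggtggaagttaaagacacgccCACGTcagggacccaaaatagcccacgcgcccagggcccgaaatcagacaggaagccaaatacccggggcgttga
Nt5e: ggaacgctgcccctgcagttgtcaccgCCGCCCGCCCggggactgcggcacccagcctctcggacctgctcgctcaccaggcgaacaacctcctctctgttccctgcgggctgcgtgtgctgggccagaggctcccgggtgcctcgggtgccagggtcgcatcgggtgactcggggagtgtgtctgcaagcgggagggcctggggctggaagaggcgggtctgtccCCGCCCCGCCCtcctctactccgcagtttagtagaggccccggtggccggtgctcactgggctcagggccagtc
Slc20a1: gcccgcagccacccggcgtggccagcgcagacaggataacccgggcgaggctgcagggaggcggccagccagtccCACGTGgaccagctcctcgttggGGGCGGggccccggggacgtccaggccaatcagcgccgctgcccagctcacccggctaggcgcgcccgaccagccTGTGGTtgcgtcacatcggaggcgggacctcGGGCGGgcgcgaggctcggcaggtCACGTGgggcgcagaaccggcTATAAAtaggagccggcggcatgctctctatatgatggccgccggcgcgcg
All 4 windows held CCGCCC, which 35.63% of 32817 mouse promoter windows of this length hold. ACGTG was found in Enpp1 and Slc20a1 but not in Ank or Nt5e, against 19.62% of all windows, and TGTGGT in the same pair against 16.76%. In Slc20a1 the 4 matches to ACGTG are 2 copies of the palindrome CACGTG read on both strands. TATAAA (13.62% of all windows) was found only in Slc20a1 among the 4, and TGANTCA (7.81%) in none of them. Neighbouring matches to CCGCCC overlap in Ank and Nt5e and were counted separately. GC content was 78.0% in Ank, 61.7% in Enpp1, 71.0% in Nt5e and 73.0% in Slc20a1, against a median of 52.7%. Of the 10 genes, 6 had a window in the table. Those of Alpl and Phospho1 are not printed, Alpl and Slc20a1 have a second start, and Abcc6, Mgp, Panx3 and Slc20a2 had no entry. A match is a description of these letters and shows no binding.

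Levels are given as scaled FPKM, which are fragments per kilobase of transcript, relative to the library's mapped fragments, divided by a factor per library that lay between 0.933 and 1.06. Estimated depth was 12.35 to 22.45 mega-fragments (median 19.48), and 13301 to 15671 genes reached 1 FPKM in a library. The labelled tissues matched their defining markers for the most part. Of 7 tested NP markers (T, Krt8, Krt18, Krt19, Cd24a, Shh and Car3) all 7 were higher in NP of vehicle mice, while Noto was near 0 in all 4 groups (mean at most 0.0594). Of 9 AF and tendon markers, 8 were lower in NP. AF libraries also held NP markers (summed level 2491 to 15090, against 25620 to 32850 in NP) and markers of bone, blood, muscle, nerve and fat. Most of the NP sum was Car3 (mean 20340 of 27220 in NP vehicle and 4794 of 6835 in AF vehicle). In bulk tissue, fewer cells of a type and less RNA per cell cannot be told apart.

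Differences between NP and AF were tested with limma on log2(scaled FPKM + 1) over 16383 genes (those reaching 1 FPKM in 5 or more libraries), with Benjamini-Hochberg adjustment across them and a threshold of 0.05. This scale understates the change of low genes. In vehicle mice, all 9 of the 10 genes that could be tested were lower in NP than in AF, with a median log2 difference of -2.22 against -0.08 over all genes tested. The background is high: 55.7% of all genes tested differed and 33.9% were lower in NP. Panx3 entered the test only because its 10 AF libraries reached 1 FPKM, so it had to differ, and the count is a description. In 7 of the 9 genes every NP library lay below every AF library, as in 25.9% of genes tested. The exceptions were the phosphate carriers Slc20a1 and Slc20a2, whose groups overlapped. In MDL-800 mice 7 of 9 genes were lower in NP (background 62.8% different, 37.2% lower, 30.5% without overlap and lower), and the same 7 did not overlap. The comparisons of the tissues in vehicle and in MDL-800 mice share no library.

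**Figure D1:**
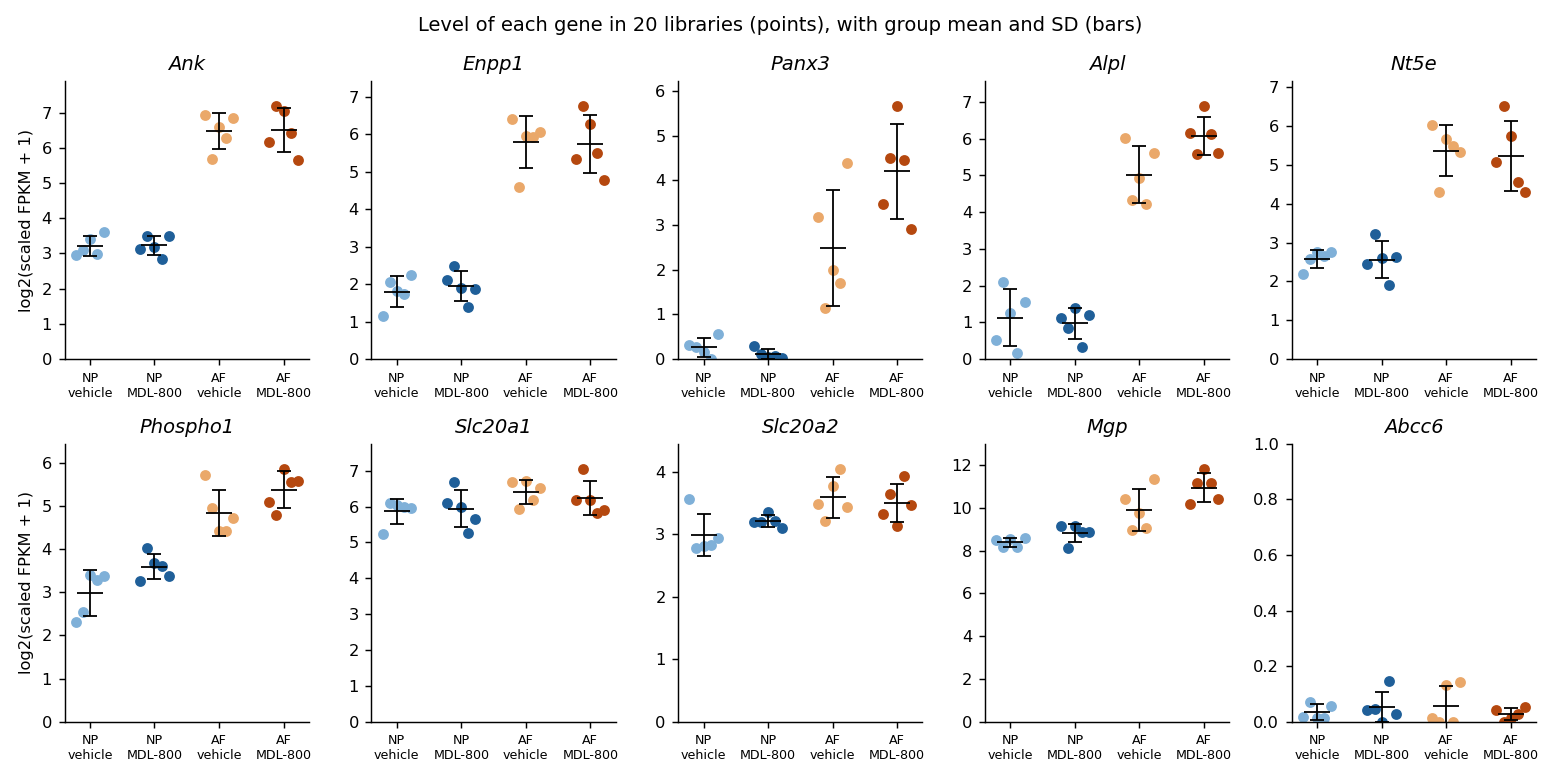
Level of each gene as log2(scaled FPKM + 1) (vertical axis, one scale per gene) in the 5 libraries of each group (points), with the group mean and SD (bars). Ank, Enpp1, Panx3, Alpl, Nt5e, Phospho1 and Mgp separate NP from AF in both treatments, the 2 Slc20 carriers overlap, and Abcc6 lies near 0 everywhere.

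Among the genes that supply pyrophosphate, Ank (ENSMUSG00000022265, chr15:27466677-27594909) was at 6.80, 7.58, 9.61, 6.85 and 11.1 scaled FPKM in libraries 1, 2, 3, 5 and 6 of NP vehicle. It was at 122, 50.2, 95.9, 75.9 and 115 in AF vehicle libraries 8, 9, 10, 12 and 13. The lowest AF library, 9, still lay far above the highest NP library. The NP mean was 8.39 ± 1.91 and the AF mean 91.7 ± 29.2 (SD, n = 5 each), a log2 difference of -3.26 ± 0.24 (SE; limma, adjusted p = 4.98e-06). With MDL-800, NP libraries 15, 18, 19, 20 and 22 were at 7.70, 10.2, 8.13, 6.19 and 10.3, and AF libraries 25, 27, 28, 29 and 30 at 71.2, 144, 132, 84.1 and 49.7. The tissue difference there was -3.27 ± 0.27 (SE; limma, adjusted p = 4.01e-06).

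Enpp1 (ENSMUSG00000037370, chr10:24637914-24712159), the enzyme that makes pyrophosphate from ATP, was at 1.22, 3.15, 2.50, 2.33 and 3.74 in the NP vehicle libraries. In AF vehicle it was at 84.6, 23.3, 60.6, 59.3 and 65.8, with library 9 again the lowest. Its NP mean was 4.41% of the AF mean, and the log2 difference was -3.99 ± 0.32 (SE; limma, adjusted p = 7.51e-06). That was the largest difference of the 9 with 1 FPKM added, but with 0.1 added Alpl was at -4.90 and Enpp1 at -4.42, and with array weights at -4.16 and -4.05. NP MDL-800 libraries held 3.29, 4.60, 2.72, 1.63 and 2.66, and AF MDL-800 libraries 39.7, 106, 75.7, 44.1 and 26.7. The difference in those mice was -3.78 ± 0.34 (SE; limma, adjusted p = 6.72e-06). The order of the AF libraries was nearly that of Ank: libraries 27 and 8 were the highest for Enpp1, and libraries 9 and 30 the lowest for both genes.

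Panx3 (ENSMUSG00000011118, chr9:37659902-37669235), a pannexin channel that releases ATP in cartilage and bone cells, was between 0 and 0.484 in the 10 NP libraries. AF vehicle libraries held 8.10, 1.21, 2.99, 2.24 and 19.8, and AF MDL-800 libraries 10.1, 21.4, 49.3, 20.9 and 6.51. All AF values lay above all NP values, but they spread widely within the vehicle group. The log2 difference was -2.22 ± 0.52 (SE) in vehicle and -4.09 ± 0.42 in MDL-800 mice. Panx1, a broadly expressed pannexin, was also lower in NP, at 0.484 against 7.32 in AF vehicle (log2 difference -2.41 ± 0.27). No NP library reached 1 FPKM for Panx1 either, so it too entered the test through AF and had to differ.

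Abcc6 (ENSMUSG00000030834, chr7:45967555-46030302), a transporter that supports ATP release mainly in liver, did not pass the filter. It was listed between 0 and 0.106 scaled FPKM in the 20 libraries, and 1 fragment at the median depth corresponds to 0.0093. Exact two-sided permutation tests gave p = 0.5159 for NP against AF in vehicle and p = 0.4286 in MDL-800 mice, with 0.0079 the smallest p possible. No difference was found at these values near 0, and the size of difference that could have been detected was not tested.

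Among the genes that break pyrophosphate or free phosphate, Alpl (ENSMUSG00000028766, chr4:137741733-137796384) was at 0.439, 3.30, 1.40, 0.128 and 1.93 in the NP vehicle libraries. In AF vehicle it was at 63.8, 19.1, 29.4, 17.6 and 47.6. Every AF library was far above every NP library, and the log2 difference was -3.90 ± 0.43 (SE; limma, adjusted p = 4.08e-05). NP MDL-800 libraries held 1.16, 0.810, 1.62, 0.243 and 1.29, and AF MDL-800 libraries 70.1, 47.2, 117, 68.5 and 47.7. The difference of -5.10 ± 0.27 (SE; limma, adjusted p = 7.11e-07) was the largest of the 9 in MDL-800 mice with 1 FPKM added, and the NP mean was 1.47% of the AF mean. Panx3 was lower still as a share (0.365%), and with 0.1 FPKM added it was at -6.69 and Alpl at -6.06.

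Nt5e (ENSMUSG00000032420, chr9:88327197-88372092), also known as CD73, was at 3.57, 4.98, 5.75, 5.28 and 5.71 in NP vehicle and at 64.6, 18.8, 50.2, 43.7 and 39.4 in AF vehicle. Library 9 was the lowest AF library here too, and the groups did not overlap. The log2 difference was -2.78 ± 0.27 (SE; limma, adjusted p = 2.10e-05), and -2.67 ± 0.40 (adjusted p = 0.000176) in MDL-800 mice. There, NP libraries lay between 2.78 and 8.33 and AF libraries between 18.6 and 90.2.

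Phospho1 (ENSMUSG00000050860, chr11:95824499-95832140), a phosphatase of matrix vesicles that frees phosphate from phosphocholine and phosphoethanolamine, was at 3.94, 4.81, 9.63, 8.71 and 9.48 in NP vehicle. AF vehicle libraries held 51.5, 30.0, 20.4, 20.5 and 25.5. NP was lower by a smaller margin than for Alpl: the NP mean was 24.7% of the AF mean and the log2 difference -1.86 ± 0.30 (SE; limma, adjusted p = 0.000349). In MDL-800 mice NP lay between 8.63 and 15.3 and AF between 26.8 and 57.1, a log2 difference of -1.78 ± 0.21 (adjusted p = 3.59e-05). In the GENCODE annotation its 2029 bases of exon share 1818 with Zfp652 on the same strand and 1708 with Abi3 on the opposite strand, so reads could be credited to more than 1 gene and the value is uncertain. Zfp652 was at 8.61 in NP and 13.4 in AF vehicle, and Abi3 at 0.281 and 3.51.

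The sodium-phosphate carriers differed least. Slc20a1 (PiT-1, ENSMUSG00000027397, chr2:129198764-129211616) was at 36.8, 67.7, 64.6, 63.0 and 61.8 in NP vehicle and at 102, 59.6, 103, 72.2 and 90.8 in AF vehicle. AF library 9 lay within the NP range, and the NP mean was 68.7% of the AF mean. The log2 difference of -0.53 ± 0.20 (SE; limma, adjusted p = 0.0407) passed the threshold narrowly. It did not pass without the filter on low genes (adjusted p = 0.0654), with quantile normalization (0.07103) or with all 4 groups in the fit (0.0810), nor when any one of 6 of the 10 libraries was left out (log2 differences -0.66 to -0.38 over the 10 such fits). In MDL-800 mice NP lay between 37.7 and 101 and AF between 56.0 and 131 (log2 difference -0.30 ± 0.28, adjusted p = 0.380, not called).

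Slc20a2 (PiT-2, ENSMUSG00000037656, chr8:22476788-22569612) lay between 5.87 and 10.9 in NP vehicle and between 8.24 and 15.5 in AF vehicle. Its log2 difference was -0.60 ± 0.19 (SE; limma, adjusted p = 0.0212), and -0.28 (adjusted p = 0.240) with quantile normalization. The call was also lost without NP vehicle library 2 (-0.55, adjusted p = 0.0513). In MDL-800 mice NP lay between 7.55 and 9.25 and AF between 7.76 and 14.3 (log2 difference -0.29 ± 0.14, adjusted p = 0.0944, not called). That difference passed without scaling (adjusted p = 0.0475) and without AF MDL-800 library 28 (-0.38, adjusted p = 0.0265), and was 0.0047 with quantile normalization. Slc20a1 was the more abundant carrier per length in all 4 groups, by 8.22 and 7.22 times in NP of vehicle and MDL-800 mice and by 7.54 and 7.15 times in AF (geometric means of the ratio within a library). Exons of Slc20a1 overlap those of 9830144P21Rik by 452 bases, and those of Slc20a2 overlap Smim19 on the opposite strand by 95.

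Mgp (ENSMUSG00000030218, chr6:136872435-136875823), the vitamin K-dependent matrix Gla protein that binds calcium and inhibits calcification of cartilage and vessels, was the most abundant of the 10 in every group. NP vehicle libraries held 363, 285, 368, 292 and 379 scaled FPKM, and AF vehicle libraries 1355, 503, 856, 538 and 2587. NP was uniform and AF spread over a wide range, yet the groups did not overlap. The log2 difference was -1.51 ± 0.40 (SE; limma, adjusted p = 0.00763). NP MDL-800 libraries held 578, 279.6, 573, 463 and 465, and AF MDL-800 libraries 1159, 2321, 3618, 2310.3 and 1367, a log2 difference of -2.12 ± 0.32 (SE; limma, adjusted p = 0.000182).

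The order of the levels therefore differed between the tissues. In NP vehicle it ran Mgp, Slc20a1, Ank, Phospho1, Slc20a2, Nt5e, Enpp1, Alpl, Panx3 and Abcc6. Ranges of Ank and Phospho1, of Phospho1 and Slc20a2, and of all neighbours from Nt5e downwards overlapped. In AF vehicle it ran Mgp, Ank, Slc20a1, Enpp1, Nt5e, Alpl, Phospho1, Slc20a2, Panx3 and Abcc6, and only Mgp and Ank, Phospho1 and Slc20a2, and Panx3 and Abcc6 were neighbours whose ranges did not overlap. Slc20a1 (mean 58.8) was thus well above Ank (8.39) in NP, and in the same range in AF (85.5 and 91.7). Within libraries, the mean log2 ratio of Ank to Alpl was 2.99 ± 1.40 (SD, n = 5) in NP vehicle, 3.09 ± 0.76 in NP MDL-800, 1.48 ± 0.45 in AF vehicle and 0.43 ± 0.66 in AF MDL-800. The ratio of Enpp1 to Alpl was 1.27, 1.56, 0.79 and -0.35 in the same order, with SDs from 0.61 to 1.30. The log2 ratio of Nt5e to Enpp1 was positive in all 10 NP libraries (0.43 to 1.47) and negative in all 10 AF libraries (-0.97 to -0.24). These ratios were not tested, and near 0 they depend on the 0.1 FPKM added to both genes.

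The NP levels can be set beside markers of other tissue in the same libraries. Summed marker levels in NP vehicle were 8.42% of AF for 10 bone cell genes, 7.30% for red blood cells, 9.65% for skeletal muscle, 9.06% for neutrophils and 2.18% for fat. Over all 12 lists other than those of NP, AF and tendon, and chondrocyte markers they ran from 2.18% to 20.4% (macrophages). The 12 include hypertrophic chondrocyte genes, which are of cartilage (4.19%). AF and tendon genes were at 18.8%, which rested on Fmod (1001 scaled FPKM in NP and 703 in AF); the other 8 genes of that list were at 2.31%. Panx3 (3.02%), Alpl (4.05%), Enpp1 (4.41%), Ank (9.16%) and Nt5e (11.7%) lay within the range of the 12 lists. Phospho1 (24.7%), Mgp (28.9%), Slc20a2 (63.0%) and Slc20a1 (68.7%) lay above it. In MDL-800 mice the 12 lists ran from 2.06% (hypertrophic chondrocytes, the next being fat at 2.42%) to 25.5%. A lower share than in vehicle mice was seen in 9 of them (bone cells at 4.07%, skeletal muscle at 3.24%). A higher one was seen in 3 (nerve 10.3% after 3.52%). Of the genes, Panx3 (0.365%) and Alpl (1.47%) lay below that range there, Enpp1 (5.10%), Ank (8.86%), Nt5e (11.9%) and Mgp (21.9%) within it, and Phospho1 (26.9%) and the 2 carriers above it. These shares compare group means, and single libraries weigh heavily on some of them. Skeletal muscle in NP vehicle was at 789.4 in library 3, and the next highest library was at 89.29. Nerve in AF vehicle was at 1024 in library 10, the next being 408.6. Bone cells in NP MDL-800 were at 190.8 in library 19, the next being 43.79. The shares and their changes with MDL-800 were not tested. The part of neighbouring tissue in these levels was not tested.

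**Figure D2:**
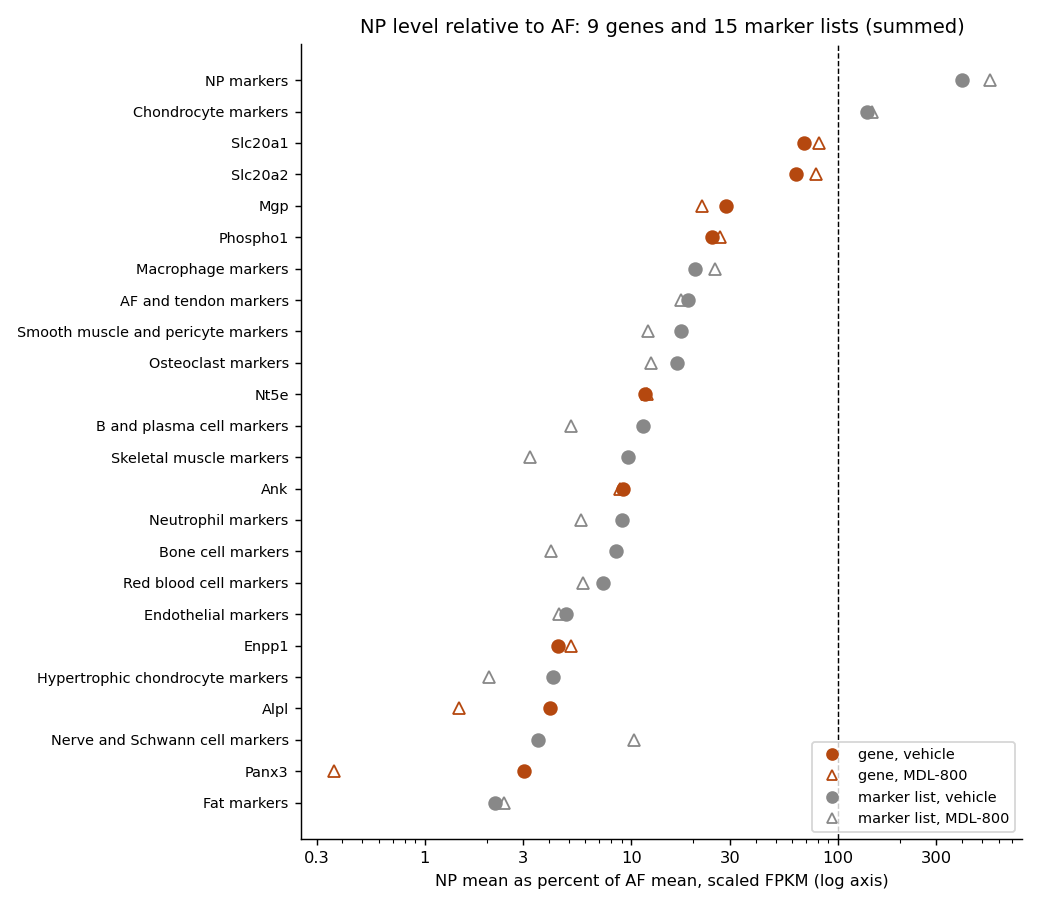
NP mean as a percent of the AF mean (horizontal log axis) for the 9 genes that passed the filter (orange) and for 15 summed marker lists (grey), in vehicle (circles) and MDL-800 mice (open triangles). Among the genes, the Slc20 carriers lie closest to the dashed line at 100%, and Panx3 and Alpl lie farthest to the left.

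Other genes of these pathways, taken from 4 lists, were compared in the same fit. Of 12 genes of ATP release, ectonucleotidases and adenosine handling, 9 were lower and 1 was higher in NP vehicle, with a median log2 difference of -1.10, where 55.7% of all genes tested differed and 33.9% were lower. Of the 9, Panx1, Entpd3 and Enpp3 reached 1 FPKM in no NP library and Ada in 1, so they entered the test through AF and had to be lower. The lower ones included Enpp3, a relative of Enpp1 (log2 difference -1.70 ± 0.17), the nucleoside carrier Slc29a1 (27.4 against 179 scaled FPKM), adenosine deaminase Ada (0.393 against 4.72) and the ATP-splitting ectoenzyme Entpd2 (3.73 against 18.4). The adenosine receptor Adora2b was the higher one, at 11.1 in NP and 3.71 in AF (log2 difference 1.36 ± 0.20, adjusted p = 0.000239). In MDL-800 mice 9 were lower and 2 higher (background 62.8% different and 37.2% lower). Entpd3, another ectonucleotidase (0.129 against 3.16), Panx1, Ada, Enpp3, Slc29a1 and Entpd1, which also splits ATP (6.26 against 17.0), had the smallest p there.

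Of 8 pyrophosphatases and other phosphate carriers, 4 passed the filter; Slc34a1, Slc34a2, Slc34a3 and Slc17a1 had means of at most 0.368 scaled FPKM. Xpr1, the phosphate exporter, was higher in NP vehicle (28.9 against 22.96, adjusted p = 0.0158). The inorganic pyrophosphatase Ppa2 (15.9 against 20.8, adjusted p = 0.0343) was lower, as was Smpd3, a sphingomyelinase needed for skeletal mineralization (0.240 against 7.51). Smpd3, and Phex of the next list, reached 1 FPKM in no NP library and had to be lower. Xpr1, Ppa2 and Smpd3 were called in the same direction in MDL-800 mice, where Ppa1, the cytosolic pyrophosphatase, was also lower (38.3 against 95.8, adjusted p = 0.00178). Of 6 genes of the phosphate hormone axis, Fgf23 and Kl were near 0 (means at most 0.262). Galnt3, which glycosylates FGF23, was higher in NP vehicle (47.1 against 13.2, adjusted p = 0.000317), and Phex, an endopeptidase of bone cells (0.674 against 7.35), and Fgfr1 (42.7 against 74.1, adjusted p = 0.00922) were lower. These calls held in MDL-800 mice, with Fam20c, a kinase of secreted proteins, also higher in NP (37.3 against 24.1, adjusted p = 0.00377).

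Of 9 genes of calcification inhibitors and the vitamin K cycle, 7 passed the filter; Ahsg and Fetub had means of at most 0.621. Tnfrsf11b, which encodes osteoprotegerin, was higher in NP vehicle (355 against 78.4, log2 difference 2.26 ± 0.26, adjusted p = 4.77e-05). Gas6, a further vitamin K-dependent protein (4.44 against 82.1, adjusted p = 5.76e-06), and Vkorc1l1, an enzyme of the vitamin K cycle (15.4 against 21.3, adjusted p = 0.00366), were lower. In MDL-800 mice 1 was higher (Tnfrsf11b) and 4 were lower: Gas6, Ucma, Vkorc1l1 and Vkorc1 (background 62.8% different and 37.2% lower). Ucma, a Gla-rich protein of cartilage, was at 33.4 in NP and 97.3 in AF of those mice (adjusted p = 0.000928).

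In NP, MDL-800 and vehicle libraries did not differ past the threshold in any of the 9 tested genes, with 41 of 16383 genes called (0.25%; 2311 had an unadjusted p under 0.05). Of the 9, Phospho1 and Mgp had an unadjusted p under 0.05. Phospho1 was at 8.63 to 15.3 with MDL-800 and 3.94 to 9.63 with vehicle, so the groups overlapped (log2 difference 0.61 ± 0.24 SE, limma, adjusted p = 0.286). Mgp followed: 4 of 5 MDL-800 libraries lay above the highest vehicle library, but library 18 was the lowest of all 10 (log2 difference 0.45 ± 0.19 SE, limma, adjusted p = 0.324). Both were higher in 5 of 5 and 4 of 5 MDL-800 libraries than the vehicle mean. Slc20a2 differed by 0.23 ± 0.15 (adjusted p = 0.533). The other 6 genes differed by -0.15 (Panx3 and Alpl) to 0.15 (Enpp1), with SEs from 0.11 to 0.35. None of the 9 separated the groups without overlap, against 4.5% of all genes tested. Of the 7 tested NP markers in these libraries, 5 had a positive difference (median 0.14, 0 called). The groups of Krt19, Krt8 and T did not overlap (limma, adjusted p = 0.141, 0.120 and 0.138), while the means with MDL-800 and vehicle were 176.3 and 176.9 for Krt18, 3330.0 and 3357 for Cd24a and 2.68 and 4.71 for Shh. Abcc6 gave an exact two-sided permutation p of 0.5952.

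In AF, no gene passed the threshold (0% of 16383; 270 had an unadjusted p under 0.05), and none of the 9 did. Groups overlapped in all 9, and 0.226% of all genes tested did not overlap. Of the 9, Panx3 and Alpl had an unadjusted p under 0.05. Panx3 was at 1.21 to 19.8 with vehicle and 6.51 to 49.3 with MDL-800 (log2 difference 1.72 ± 0.66 SE, limma, adjusted p = 1.0). Alpl was at 17.6 to 63.8 and 47.2 to 117, with vehicle libraries 8 and 13 inside the MDL-800 range (1.05 ± 0.38 SE, limma, adjusted p = 1.0). Mgp differed by 1.05 ± 0.48 and Phospho1 by 0.53 ± 0.28 (both limma, adjusted p = 1.0). Of the pyrophosphate suppliers other than Panx3, Ank differed by 0.03 ± 0.33 and Enpp1 by -0.06 ± 0.41, and Nt5e was at -0.13 ± 0.44. Slc20a1 (-0.17 ± 0.24) and Slc20a2 (-0.09 ± 0.19) were likewise not called, and Abcc6 gave an exact permutation p of 0.4127.

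**Figure D3:**
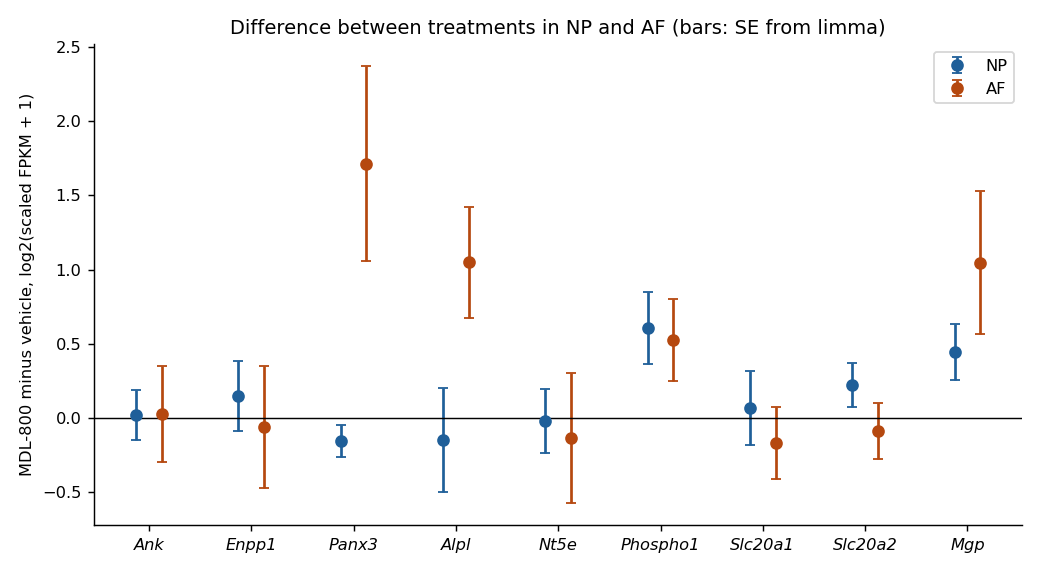
MDL-800 minus vehicle as the difference of mean log2(scaled FPKM + 1) (vertical axis) for 9 genes in NP (blue) and AF (orange), with the SE from limma (bars) and 5 libraries per group. Panx3, Alpl and Mgp in AF lie above 1, and no difference passed the threshold after adjustment.

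The effect of MDL-800 was compared between the tissues in 1 fit of all 4 groups. No gene passed (0% of 16383, 611 with an unadjusted p under 0.05). NP minus AF, the difference of effects was -1.87 ± 0.70 for Panx3 and -1.20 ± 0.54 for Alpl (SE; limma, adjusted p = 0.9997 for both), the 2 genes of the 9 with an unadjusted p under 0.05. For the other 7 it lay between -0.60 and 0.31. No call was made for any gene of the 4 pathway lists under treatment in either tissue. Those with the smallest p in NP were Entpd5, an ectonucleotidase relative (-0.29 ± 0.10, adjusted p = 0.199), Ppa2 (-0.17 ± 0.10, adjusted p = 0.489), Fam20c (0.58 ± 0.15, adjusted p = 0.115) and Vkorc1 (-0.22 ± 0.12, adjusted p = 0.434). In AF they were Entpd3 (0.66 ± 0.23), Ppa1 (0.92 ± 0.33), Phex (0.72 ± 0.40) and Ucma (0.78 ± 0.31), each with an adjusted p of 1.0 by limma.

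Bone cell markers were on average higher in the AF libraries with MDL-800, with no gene called. The mean log2(scaled FPKM + 1) of 10 bone cell genes was 5.11, 4.56, 4.56, 3.45 and 4.95 in AF vehicle libraries 8, 9, 10, 12 and 13. In AF MDL-800 libraries 25, 27, 28, 29 and 30 it was 4.83, 5.18, 5.72, 5.55 and 5.56, so that 4 of 5 lay above every vehicle library. All 10 bone cell genes were higher on average with MDL-800 (median log2 difference 0.73, 0 called), among them osteocalcin Bglap (263 against 731 scaled FPKM), as were all 3 hypertrophic chondrocyte genes (median 0.71, 0 called). Their summed level ran from 275.7 to 1194 in AF vehicle and from 880 to 2133 in AF MDL-800 for bone, and from 74.3 to 234 and from 99.1 to 335 for hypertrophic chondrocytes. Other lists were one-sided too, by smaller medians: chondrocyte (6 of 6 higher, median 0.24), neutrophil (5 of 5, 0.16) and endothelial genes (5 of 5, 0.10) were higher, and macrophage genes lower (0 of 5 higher, -0.25). Nerve and Schwann cell genes were lower by a larger median (0 of 4 higher, -0.85). NP markers (5 of 7 higher, median 0.05) and AF and tendon markers (2 of 9 higher, median -0.19) had both signs, and the median over all genes tested was 0.01. None of these genes was called.

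Within AF, with treatment as a covariate, the slope on the bone marker mean was 0.87 ± 0.31 for Alpl (SE; limma, adjusted p = 0.299), 1.08 ± 0.41 for Mgp (adjusted p = 0.301), 0.64 ± 0.23 for Phospho1 (adjusted p = 0.299) and 1.20 ± 0.62 for Panx3 (adjusted p = 0.378). For Ank, Enpp1, Nt5e and Slc20a1 it lay between -0.025 and 0.32, with adjusted p from 0.650 to 0.982. No gene of 16383 passed (0%, 2463 with an unadjusted p under 0.05, among them Alpl, Mgp and Phospho1). Within NP the slope of Alpl was 0.83 ± 0.25 (limma, adjusted p = 1.0) and that of Mgp 0.09 ± 0.20 (adjusted p = 1.0), with 0.0122% of genes called (2, both among the 10 markers that form the mean). The slopes describe variation among libraries of the same treatment. The part of bone tissue in the AF differences under MDL-800 was not tested.

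**Figure D4:**
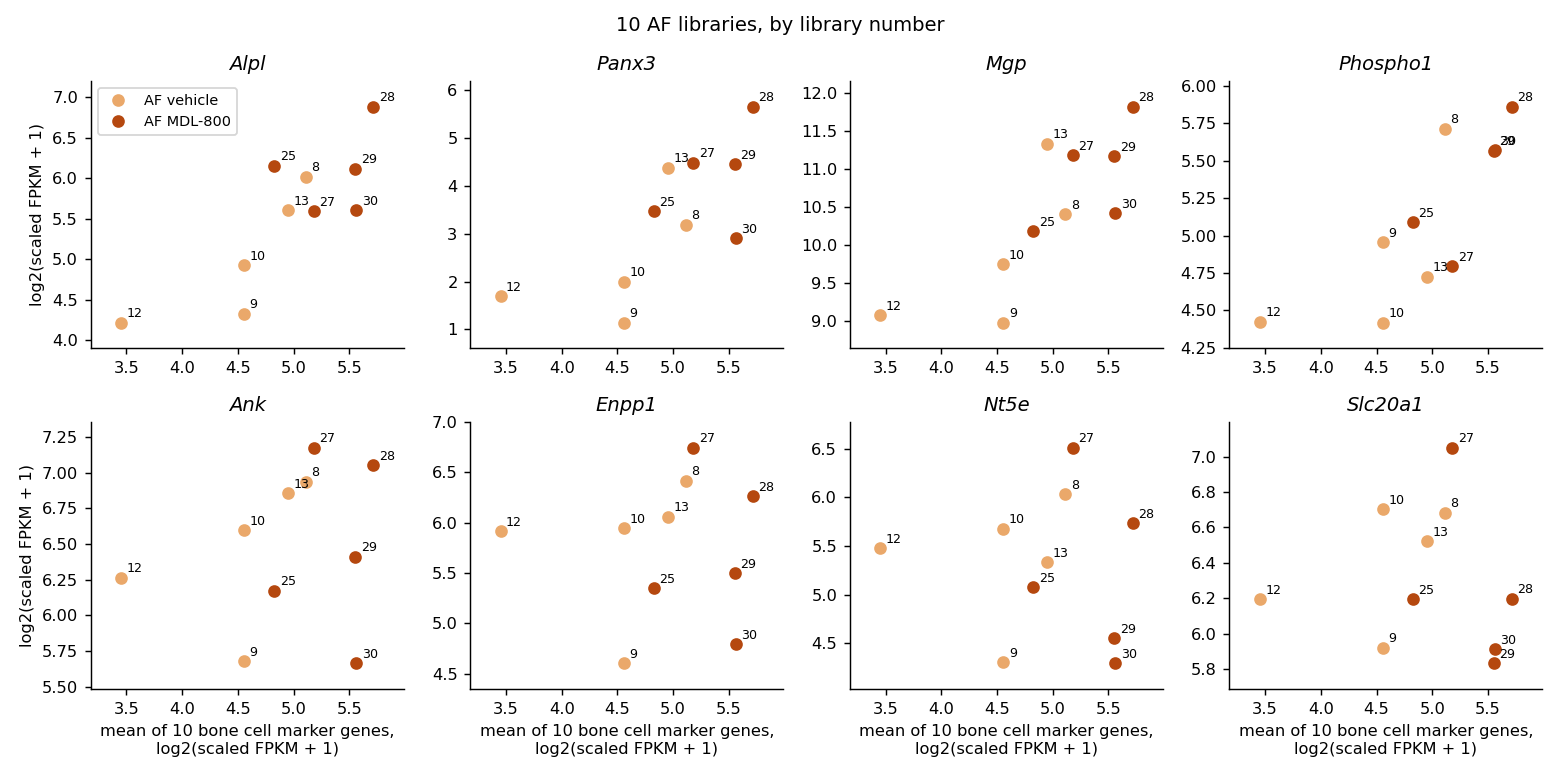
Level of 8 genes (vertical axis, log2(scaled FPKM + 1)) against the mean of 10 bone cell marker genes (horizontal axis, same scale) in 5 AF vehicle (light) and 5 AF MDL-800 (dark) libraries, labelled by number. Library 28 is the highest for Alpl, Panx3, Mgp and Phospho1, and library 27 for Ank, Enpp1, Nt5e and Slc20a1.

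Libraries of 1 group also differed in the share of each tissue's markers. AF vehicle library 9, lowest of its group for Ank, Enpp1, Nt5e, Panx3, Slc20a1, Slc20a2 and Mgp, had the highest summed NP markers of the 10 AF libraries (15090, the next being 7508) and the lowest AF and tendon markers (3081). Car3, with a highest AF vehicle value of 10910, weighs most in that NP sum. Libraries 8 and 27, highest for Enpp1 and Nt5e, had the highest AF and tendon sums (9828 and 8285) and low NP sums (3646 and 3644). AF MDL-800 library 30, lowest of its group for Ank, Enpp1, Nt5e and Panx3, had the lowest AF and tendon sum of that group (4722). The part of the dissection in this spread was not tested. The tissue calls of Ank, Enpp1, Nt5e, Alpl, Panx3, Phospho1 and Mgp in vehicle mice held without library 9, as in the other fits that left out 1 library.

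Across the 20 libraries, with each group's mean subtracted, the genes fell into sets that moved alike (Pearson's r on the log2 scale, a description over libraries that share dissection and depth). Enpp1 and Nt5e had r = 0.93, Ank and Enpp1 0.91, Ank and Nt5e 0.86, Nt5e and Slc20a1 0.84 and Enpp1 and Slc20a1 0.81. Nt5e was the third closest of 16382 genes to Enpp1. Slc20a1 had rank 41 for Nt5e, rank 95 for Enpp1 and rank 641 for Ank (r = 0.65). Within the 10 NP libraries alone Enpp1 and Nt5e had r = 0.85 and Enpp1 and Slc20a1 0.91 (ranks 70 and 10 for Enpp1). Within the 10 AF libraries the values were 0.95 and 0.82 (ranks 33 and 516). Ank was less close within NP, with r = 0.71 to Enpp1 (rank 831 of 16382) and 0.76 to Nt5e (rank 458). Within AF its values were 0.96 (rank 10) and 0.89 (rank 190). Ank and Slc20a1 had 0.53 within NP and 0.78 within AF. Panx3 and Mgp formed another pair (r = 0.91), in which Panx3 ranked second of 16382 genes for Mgp. That likeness was one of AF libraries, with r = 0.97 within AF and 0.33 within NP, where Panx3 is near 0. Alpl was closest to Panx3 (0.61; 0.79 within AF and 0.42 within NP) and Mgp (0.56; 0.77 and 0.15). Phospho1 had no r above 0.31 with any of the others over the 20 libraries. It reached 0.64 with Alpl within AF and 0.59 with Nt5e within NP, but these were only ranks 1768 and 2561 of 16382. Slc20a2 had negative values with all 8, the lowest -0.45 with Phospho1. Within AF alone it was slightly positive with Ank (0.04), Enpp1 (0.20), Nt5e (0.11) and Slc20a1 (0.07), and within NP with Panx3 (0.20) and Mgp (0.26).

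**Figure D5:**
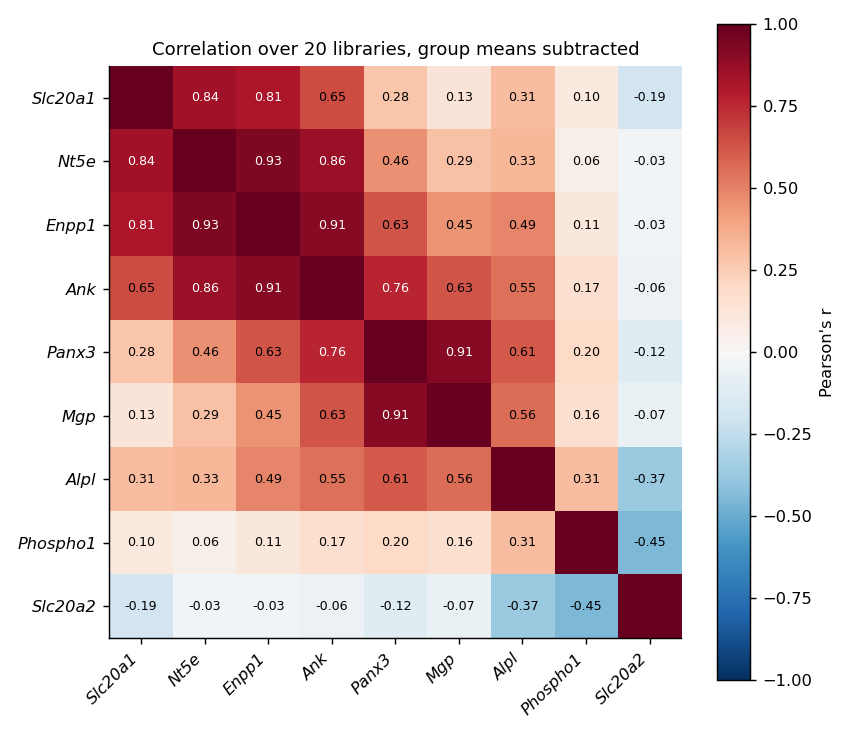
Pearson's r between the genes' log2(scaled FPKM + 1) over 20 libraries after each group's mean was subtracted; colour runs from -1 (blue) to 1 (red). Slc20a1, Nt5e, Enpp1 and Ank form a block with r from 0.65 to 0.93, Panx3 and Mgp a pair at 0.91, and Slc20a2 is below 0 with all.

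The genes most alike in pattern were sought among all 16383 tested. Without subtraction of group means, r also holds the gap between NP and AF, and high values were common. Ank and Alpl had r = 0.96 at rank 545 of 16382, and Ank and Panx3 0.90 at rank 2114. Over the 20 libraries Ank was closest to Pde3a, a cyclic nucleotide phosphodiesterase (r = 0.996), and to Adcy2, an adenylyl cyclase (0.994). With group means subtracted its closest were Pde3a (0.946) and the nucleoside carrier Slc29a1 (0.917). Enpp1 was closest to the extracellular sulfatase Sulf1 (0.995) and to Ank (0.994), and after subtraction to Pam (0.934) and Sulf1 (0.931). Nt5e was closest to Enpp1 (0.986; 0.929 after subtraction), then to Slc29a1 (0.983) and, after subtraction, to Inhba (0.900). Alpl was closest to Clec11a and Fap (both 0.985), and after subtraction to Fap (0.825) and Tmem119 (0.812). Panx3 was closest to the cartilage matrix gene Matn3 (0.986), and after subtraction to Corin (0.970).

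Mgp was closest to Ihh, a signal of prehypertrophic chondrocytes (0.965), and Panx3 (0.962), in the same order after subtraction (0.913 and 0.909). Phospho1 was closest to the procollagen proteinase Bmp1 (0.976) and Ptprs (0.957), and after subtraction to Uck2 (0.928) and Zbtb7b (0.865). The phosphate carriers had weaker partners: Slc20a1 was closest to Pqlc3 (0.848) and Lrrc8d (0.845), after subtraction to Mapk6 (0.878) and Scin (0.867). Slc20a2 was closest to Art3 (0.828) and Nid1 (0.824), after subtraction to Zfp420 (0.827) and Zfp846 (0.799).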

How the data were processed

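RNA was measured in 20 libraries, 5 in each of 4 groups. Per the labels' protocols, NP and AF were dissected under a microscope, RNA was column-purified, and stranded total RNA libraries were made after ribosomal RNA depletion from 50 ng with 14 PCR cycles. The authors deposited 1 table of FPKM values for 51789 genes, rounded to 2 decimals. The submitters' processing notes name STAR 2.7.11b and mm10; the counting program and annotation are not given in the sources used here.

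Count models need counts and were left out. Values were divided by a median ratio from 11308 genes that reached 1 FPKM in every one of the 20 libraries. log2(scaled FPKM + 1) was tested with limma 3.58.1 in R 4.3.3 (lmFit, eBayes with trend, two-sided), with only the 2 groups compared in each fit, or all 4 for the difference of effects. The slope fits took the 10 libraries of a tissue with treatment as a covariate. Abcc6, below the filter, was tested by exact permutation with Python 3.11.15. The limma scripts were tested on simulated data.

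Depth was estimated from steps in low values of 6791 single-exon genes, which lie on multiples of what 1 fragment is worth; 78.4% to 83.6% of values fell within 0.15 fragments of a step, and depth is therefore approximate. GENCODE M21 on GRCm38 gave coordinates and matched 51596 gene identifiers. The 10 genes, the pathway and marker lists and the tests were chosen with earlier results of these data known. Named besides the 10 genes were, from each pathway list, up to 6 called genes with the smallest p per comparison (or, without a call, the gene with the smallest p), for each of the 10 with a group mean of at least 5 the 2 most alike of all genes tested, and markers near 0 or most abundant. Alternatives were a pseudocount of 0.1, no filter, no scaling, quantile normalization, array weights, all 4 groups in 1 fit, no treatment covariate, and leaving out each library. A gene that the rule for like patterns also named beside Panx3 is not reported here.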

Additional observations from a re-analysis of the deposited data

Results flagged for a closer look

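In each of 40 sets of 5 libraries (10 genes in 4 groups) the lowest and the highest library were checked for a gap to the nearest other library of more than 0.71 of the whole range, Dixon's critical value at 95%. Such a gap was found in 4 sets, and chance flags about 1 set in 20. Enpp1 was far lower in AF vehicle library 9 (23.3 scaled FPKM) than in the other 4 libraries of that group (59.3 to 84.6). Slc20a1 was far lower in NP vehicle library 1 (36.8, the others 61.8 to 67.7), and Slc20a2 far higher in the same library (10.9, the others 5.87 to 6.66). Panx3 was higher in NP MDL-800 library 15 (0.229) than in the other 4 libraries of that group (0.0206 to 0.0736), where 1 fragment at the median depth corresponds to 0.0158.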

How the results depend on the processing

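The count of the 9 genes called stayed within 1.5 times of its value under every alternative run in all 7 comparisons. That limit is too wide to show the loss of a single call. Between the tissues in vehicle mice, Slc20a1 passed in only 7 of 17 alternative fits and Slc20a2 in 15. Abcc6 and the NP values of Panx3 were low, and 1 fragment at the median depth is 0.0093 and 0.0158 FPKM for these genes. The tissue difference of Panx3 in vehicle mice was -2.22 with 1 FPKM added and -4.04 with 0.1 added. The number in the column names that some NP and AF libraries share did not show pairing: same-numbered pairs had r of their deviations from -0.178 to 0.285 in vehicle (5 pairs) and from -0.176 to 0.17 in MDL-800 mice (3 pairs), and 1 of 5 and 1 of 3 correlated best with their own number. With that replicate block, chosen after seeing the data, Slc20a1 was at -0.53 (adjusted p = 0.0820) in vehicle and at -0.74 (adjusted p = 0.0361) in MDL-800 mice, where 4 libraries were dropped; no other of the 9 genes changed its call. Slc20a2 between the tissues in MDL-800 mice was 0.0047 with quantile normalization. For MDL-800 in NP, Ank was -0.0106 with quantile normalization and -0.0109 with array weights, Slc20a1 -0.0321 with array weights, and the genes called over the whole table were 16 without the filter, 18 without scaling and 4 with all 4 groups in 1 fit. In AF, Ank was -0.053 with array weights. The difference of effects was 0.0315 for Ank and -0.1242 for Phospho1 with array weights, and -4.7e-05 for Phospho1 with quantile normalization. Slopes in AF were -0.0504 for Slc20a1 without the covariate, and 0.0443 and 0.1812 for Nt5e with quantile normalization and array weights. In NP the slope of Slc20a2 was 0.0137 with array weights, and genes called over the whole table were 0 with a pseudocount of 0.1 and without the filter, and 4 with array weights. None of the single-gene values whose sign turned was called, and the cause was not tested.

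Leaving out 1 library moved the whole-table counts from 2 to 189 for MDL-800 in NP (189 without NP vehicle library 6), from 0 to 1 in AF and for the difference of effects, from 0 to 3 for the AF slope and from 0 to 2 for the NP slope. It also turned the sign of small differences that were not called. For MDL-800 in NP the ranges were -0.0471 to 0.1182 for Ank, -0.1142 to 0.2365 for Slc20a1, -0.3859 to 0.0968 for Alpl, -0.1854 to 0.1403 for Nt5e and -0.0097 to 0.2906 for Enpp1. In AF they were -0.1689 to 0.2368 for Ank, -0.4521 to 0.1018 for Nt5e, -0.3566 to 0.1748 for Enpp1 and -0.1944 to 0.0265 for Slc20a2. For the difference of effects they were -0.2164 to 0.1892 for Ank, -0.1225 to 0.4314 for Nt5e, -0.023 to 0.5084 for Enpp1 and -0.1354 to 0.202 for Phospho1. AF slopes ran from -0.1711 to 0.1584 for Slc20a1, -0.3067 to 0.1289 for Nt5e, -0.0949 to 0.6087 for Enpp1 and -0.3945 to 0.0016 for Slc20a2. NP slopes ran from -0.0228 to 0.1838 for Panx3, -0.1173 to 0.1734 for Mgp and -0.2085 to 0.0777 for Slc20a2. The differences of Panx3, Mgp and Phospho1 in AF stayed positive in all 16 fits of each, as did Alpl.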
